A study of Mus musculus with 4 samples.

Results

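The 43 genes described here encode enzymes that add or remove methyl groups on histones, their core cofactors and the central subunits of the Polycomb complexes. They were taken as a list of gene names from 50600 genes counted in mouse samples labelled as regulatory T cells. No threshold on a measured value was used, but the list was chosen with earlier results of these data known. All 43 names matched 1 gene. They comprise 10 H3K4 methyltransferases and cofactors, 4 methyltransferases of H3K36 or H3K79, 5 of H3K9, 13 lysine demethylases, 6 subunits of Polycomb repressive complex 2 (PRC2), 3 of Polycomb repressive complex 1 (PRC1) and 2 arginine methyltransferases.

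Histone tails are methylated by enzymes that transfer a methyl group from S-adenosylmethionine, and demethylases take the group off again. Methylation of H3K4 marks promoters and enhancers in use, methylation of H3K36 and H3K79 follows transcribed gene bodies, and methylation of H3K9 and H3K27 goes with silent chromatin. PRC2 methylates H3K27 and PRC1 attaches ubiquitin to histone H2A, which together keep developmental genes of other lineages off. Regulatory T cells, a branch of the CD4 lineage, restrain immune responses and depend on the transcription factor Foxp3. The PRC2 enzyme Ezh2 is known to be induced when T cells are activated and to help activated regulatory T cells keep their identity.

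RNA was sequenced in 4 libraries that form 1 group, labelled as primary regulatory T cells of C57BL/6NJ mice. They were biological replicates 1 to 4, each with its own biosample record and all with 1 donor record. Sex was not collected, and age and developmental stage are given as unknown. The labels name total RNA as the molecule and cite protocols for poly(A) libraries and for CD4 T cell differentiation, while the columns inside the deposited tables carry the texts mmTreg, activated and 00h. No second condition was analysed here, so members were compared with each other within a library and with the other genes. The spread that the p-values rest on is the one among these 4 samples and may be technical in part. It also includes a difference in Y-linked transcripts, abundant in replicates 3 and 4 and near the limit of counting in replicates 1 and 2. The test of variation took the samples as 1 group, with no term for this difference.

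Gene counts summed to 25573253, 62090744, 23000465 and 61943411 fragments in replicates 1 to 4. The CD4 T cell markers Cd3e, Cd4, Trac, Trbc2, Lck and Cd28 summed to 9286 to 9689 TPM (the count per exon length scaled to the same total in each library). All 6 regulatory T cell markers reached 1 TPM in every library, but 4 were low. Foxp3 averaged 8.28 TPM, Ctla4 7.77, Il2ra 5.52 and Ikzf2 1.34. Il2ra ranged from 3.11 TPM in replicate 4 to 9.13 in replicate 3. Most of the list's summed level of 283 to 306 TPM came from Izumo1r and Tnfrsf18. B cell markers summed to 101, 61.7, 61.8 and 22.1 TPM in replicates 1 to 4 (4 of 6 at 1 TPM in every library), and their part in the values below was not tested. Summed levels were 37.2 to 42.3 TPM for the CD8 T cell markers (Cd8b1 at 40.0 on average and Cd8a at 0.79). Macrophage and monocyte markers summed to 14.0 to 16.7 TPM, with 3 of 6 at 1 TPM in every library. Cd68 averaged 11.7 TPM, Lyz2 1.78 and Itgam 1.60, while Cd14 was at 0 in 3 libraries. Natural killer cell markers summed to 5.02 to 7.72 TPM (1 of 4 at 1 TPM in every library). Dendritic cell markers summed to 0.261 to 0.333 TPM, and 0 of 5 reached 1 TPM. The 10 markers of dividing cells summed to 20.4 to 24.4 TPM, and 5 of them reached 1 TPM in every library. In bulk RNA, fewer cells of a type and less RNA per cell cannot be told apart.

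Nearly the whole group of genes was expressed. At least 1 TPM in every library was reached by 42 of the 43 members, against 23.1% of all 50600 genes and 45.7% of 21764 protein-coding genes. The median member stood at 64.9 ± 3.47 TPM (SD, n = 4), while the median over the 9948 protein-coding genes detected in every library was 33.3 TPM, with quartiles at 12.5 and 74.8. Above that median lay 35 members, and above the upper quartile 16. Most members lay within a narrow band: 27 averaged 30 to 100 TPM, 9 averaged 100 or more, 6 averaged 10 to 30 and 1 averaged less. All members together held 3264 ± 89.3 TPM and took 0.912% ± 0.0319 of the gene counts.

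**Figure D1:**
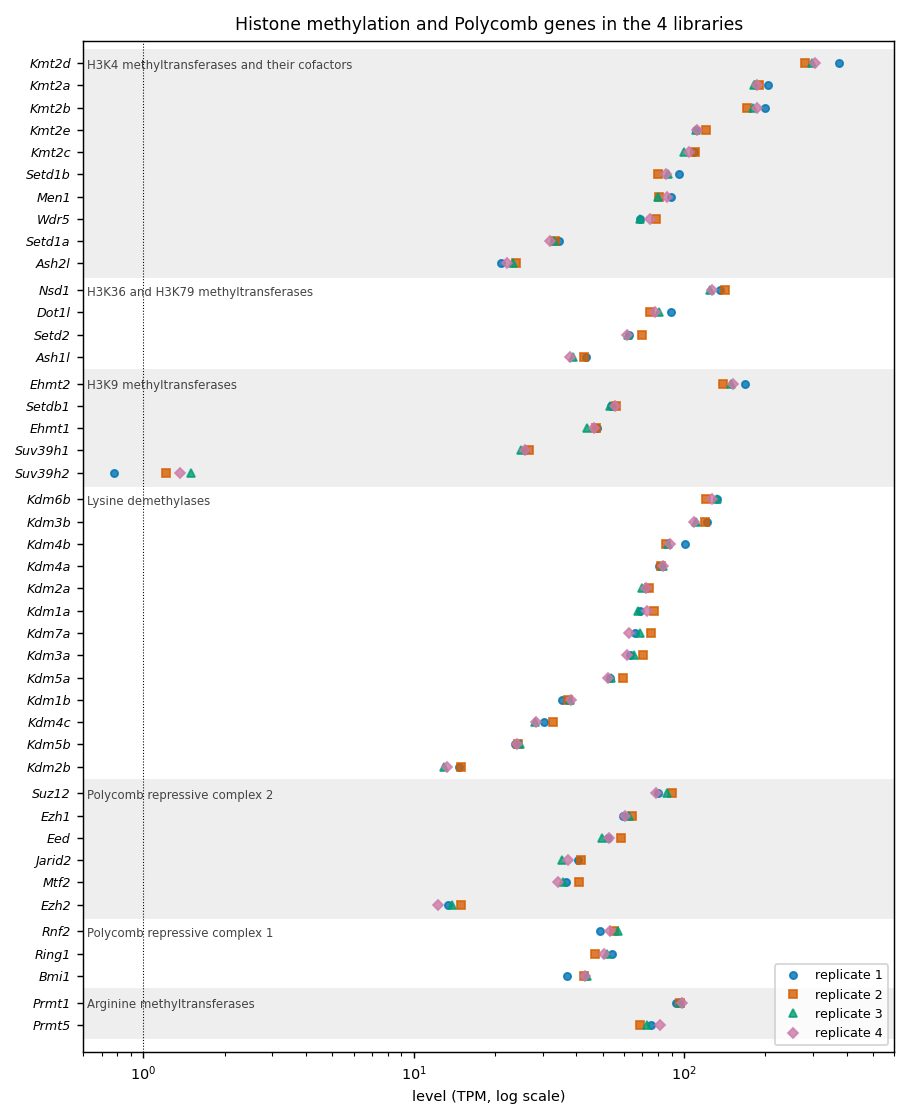
Level of each of the 43 genes (TPM, log axis), grouped by role, with 1 point per library and a dotted line at 1 TPM. Kmt2d lies farthest right at 281 to 375 TPM, and Suv39h2 is the gene near the dotted line, at 0.78 to 1.49 TPM.

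The order of levels ran from Kmt2d at 314 TPM to Suv39h2 at 1.21, a 259-fold span. Without Suv39h2 the span was 23.1-fold, down to Ezh2. Levels depend on the gene length that divides the count, which is the deposited exon length here. With the median length of a gene's protein-coding transcripts instead, 23 of 43 members moved by over 1.5-fold, and Nsd1 stood highest at 697 TPM with Kmt2d at 267. With the longest such transcript 3 members moved that far, and Kmt2d stayed highest at 229. Suv39h2 was lowest with each length, at 1.10 and 0.90 TPM, and 35 and 34 members lay above the median of detected protein-coding genes. Most neighbours in that order could not be separated: in 33 of 42 neighbouring pairs the ranges over the 4 libraries overlapped. Counting error was small for all but Suv39h2, whose counts were 25, 94, 44 and 108 in replicates 1 to 4. Every other member had at least 616 counts in each library, and counting error (1 over the square root of the count) stayed under 5% in every library for those 42.

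Sequence upstream of the start site was taken from RefSeq (GRCm38.p6) for the 24 members with a single promoter window there. In all 24 the 250 bases before the start held over 50% GC and a CpG content above 0.6 of that expected from the C and G content, a combination found in 68.6% of 6353 windows of detected protein-coding genes and in 30.6% of all 22862 windows. The median number of CpG was 22.5 in members, from 12 in Wdr5 to 56 in Kdm7a, beside 17 in detected genes and 5 in all. The letters GGGCGG (a GC box, either strand) stood in 17 of 24 member windows (70.8%), in 62.5% of detected and in 32.4% of all windows. Either of TTTCCCGC and TTTGGCGC (E2F-type letters, either strand) stood in 1 of 24 (4.17%), beside 3.02% and 1.35%. The stretches below belong to the member with the highest level by the deposited length, the member with the lowest, and the 2 PRC2 enzymes whose levels differed 4.51-fold. All are on the minus strand, written from 5′ to 3′ and with CpG in capitals. For Ezh2 and Suv39h2 only the longest stretch of the window without annotated exon is given. The Ezh2 stretch is upstream of the RefSeq start only. In GENCODE the gene spans 47530139 to 47595341, so the stretch lies inside it.
Kmt2d, chr15:98871206-98871455: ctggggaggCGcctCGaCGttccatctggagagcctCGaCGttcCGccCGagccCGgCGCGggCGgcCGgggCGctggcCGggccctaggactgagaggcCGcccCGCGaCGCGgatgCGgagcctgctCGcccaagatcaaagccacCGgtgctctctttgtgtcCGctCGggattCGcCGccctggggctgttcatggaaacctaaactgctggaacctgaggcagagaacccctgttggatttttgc
Suv39h2, chr2:3475032-3475236: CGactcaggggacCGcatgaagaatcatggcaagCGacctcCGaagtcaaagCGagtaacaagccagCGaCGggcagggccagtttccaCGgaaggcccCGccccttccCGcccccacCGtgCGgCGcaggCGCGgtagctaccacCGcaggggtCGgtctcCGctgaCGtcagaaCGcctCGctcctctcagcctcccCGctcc
Ezh1, chr11:101226464-101226713: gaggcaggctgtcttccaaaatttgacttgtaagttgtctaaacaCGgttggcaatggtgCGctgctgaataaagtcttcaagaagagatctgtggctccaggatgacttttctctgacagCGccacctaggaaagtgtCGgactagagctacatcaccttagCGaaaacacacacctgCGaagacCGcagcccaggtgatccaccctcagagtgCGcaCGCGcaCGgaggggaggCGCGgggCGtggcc
Ezh2, chr6:47595059-47595183: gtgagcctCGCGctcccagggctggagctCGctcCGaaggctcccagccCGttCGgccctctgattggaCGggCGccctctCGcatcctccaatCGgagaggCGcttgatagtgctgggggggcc
The 250 bases of Kmt2d held 26 CpG and those of Ezh1 14, while the printed 205 bases of Suv39h2 held 22 and the printed 125 bases of Ezh2 held 11. The whole windows of Suv39h2 and Ezh2 held 27 and 23 CpG. The lowest member thus had a window as rich in CpG as the Kmt2d window.

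H3K4 methyltransferases and cofactors had a median of 96.8 ± 3.99 TPM, beside 85.5 ± 2.87 in the arginine methyltransferases, and all 10 members were detected. The order of these medians turned with gene length, at 82.6 against 144 TPM with the median transcript length and 95.5 against 95.8 with the longest. Kmt2d, an enzyme that monomethylates H3K4 at enhancers, stood at 374.65, 281.20, 296.56 and 304.02 TPM in replicates 1 to 4. Replicate 1 was the highest of the 4 libraries and the other 3 lay close together. Kmt2d alone took 19.6% ± 1.82 of all member counts. Its partner in that role, Kmt2c, stood at 109.23, 110.19, 100.26 and 104.48 TPM, and Kmt2d exceeded it in each library, with a mean log2 ratio of 1.56 ± 0.17 (2.94-fold). The promoter-type enzymes Kmt2a (190 ± 9.51 TPM) and Kmt2b (185 ± 11.6) ranked next and overlapped, and their log2 ratio was only 0.05 ± 0.06.

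Setd1b, which lays down much of the H3K4 trimethylation at promoters, had 96.06, 80.14, 86.92 and 85.48 TPM. Its paralog Setd1a was listed at 34.32, 33.36, 33.07 and 31.87 TPM, 2.62-fold lower, but that value is uncertain. Of the exon length of Setd1a, 51.8% overlaps another gene on the same strand, and fragments in such stretches were not counted. Kmt2e, a SET-domain relative not known as a strong histone methyltransferase, averaged 113 ± 4.92 TPM and its nearest relative Setd5 50.7, 2.23-fold less. Among the shared cofactors, Men1 (menin, a partner of Kmt2a and Kmt2b) averaged 84.2 ± 4.33 TPM, Wdr5 (a scaffold of all these complexes) 72.8 ± 4.99 and Ash2l (a core subunit) 22.6 ± 1.24. Ash2l was thus the lowest of the group, at 21.11 to 23.88 TPM over the libraries, but with the longest transcript Setd1a was, at 25.3 TPM against 44.7 for Ash2l.

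Of 10 further COMPASS and Trithorax partners (the complexes that carry these enzymes), 9 were detected in every library. The highest were Cxxc1, the CpG-binding subunit of the Setd1 complexes, at 271 TPM, the coactivator Hcfc1 at 173 and Psip1, which tethers Kmt2a to chromatin, at 91.7. Pagr1a, a subunit of the Kmt2c and Kmt2d complexes, was listed at 0.107 TPM, but 98.7% of its exon length overlaps another gene on the same strand.

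The 4 enzymes of H3K36 and H3K79 had a median of 72.4 ± 2.62 TPM. Nsd1, which dimethylates H3K36, was highest at 136.12, 141.23, 124.94 and 126.90 TPM. Its relative Nsd2 averaged 6.31 TPM, so that Nsd1 was 20.7-fold higher (log2 ratio 4.37 ± 0.07). Dot1l, the H3K79 methyltransferase, averaged 80.9 ± 6.38 TPM. Setd2, which trimethylates H3K36 behind RNA polymerase, averaged 64.0 ± 3.78, and Ash1l, another H3K36 enzyme, 40.6 ± 2.70.

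H3K9 methyltransferases included both a high and the lowest member. Ehmt2, which dimethylates H3K9 in euchromatin as a dimer with Ehmt1, had 167.85, 139.73, 148.87 and 151.10 TPM. Ehmt1 averaged 46.3 ± 1.83 TPM, and Ehmt2 exceeded it 3.27-fold, in every library. Setdb1, which acts on retroelements with Trim28, averaged 54.7 ± 1.37 TPM, and Trim28 itself reached 291, the highest of 10 H3K9 readers and partners. The next of these were the heterochromatin protein Cbx1 (53.1 TPM) and Atf7ip, a partner of Setdb1 (53.0), and the lowest was Uhrf1, which links H3K9 methylation to DNA methylation in replication, at 6.57.

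Suv39h1 and Suv39h2 both trimethylate H3K9 in pericentric heterochromatin, and they differed strongly. Suv39h1 had 25.86, 26.60, 24.99 and 25.78 TPM. Suv39h2 had 0.78, 1.22, 1.49 and 1.37 TPM, and in replicate 1 it was the only member under 1 TPM in any library. Their levels did not overlap, and the log2 ratio was 4.34 ± 0.39, or 20.2-fold. Its spread was wider than that of most pairs, and the lower gene rested on the few counts given above. For Suv39h1, 25.5% of its sampled 50-base words also occur in transcripts of another gene, and fragments with several alignments were not counted.

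Lysine demethylases had a median of 67.5 ± 5.03 TPM, and all 13 were detected. The highest was Kdm6b, which removes H3K27 methylation, with 132.61, 120.48, 132.35 and 126.67 TPM. It stayed highest with the longest transcript (97.4 TPM), but with the median transcript length it stood at 59.3 TPM, below Kdm2a (259), Kdm3b (86.5), Kdm1a (80.1) and Kdm5a (60.1). Next came the H3K9 demethylase Kdm3b at 115 ± 6.30 TPM, 1.77-fold above its paralog Kdm3a (65.1 ± 4.09). The H3K9 and H3K36 demethylases Kdm4b (90.8 ± 7.06) and Kdm4a (82.6 ± 1.39) were near each other, with a log2 ratio of Kdm4a to Kdm4b of -0.13 ± 0.13, and Kdm4a was 2.76-fold above Kdm4c (29.9 ± 2.25). Kdm1a, the flavin-dependent H3K4 demethylase of the CoREST complex, averaged 71.6 ± 4.48 TPM and its relative Kdm1b 37.1 ± 1.18.

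Kdm2a, a CpG-binding H3K36 demethylase, had 72.15, 74.50, 69.88 and 72.40 TPM, while Kdm2b, which also brings a PRC1 form to CpG islands, had 14.66, 14.99, 12.96 and 13.32. The 2 genes did not overlap and differed 5.15-fold. Kdm7a, which acts on H3K9 and H3K27, averaged 68.1 ± 5.38 TPM, 1.97-fold above its relative Phf8 (34.6). The H3K4 demethylases Kdm5a and Kdm5b averaged 54.6 ± 3.17 and 24.2 ± 0.40 TPM. Of 16 further demethylase genes and partners, 12 were detected in every library. The highest were Phf2, an H3K9 demethylase, at 146 TPM, the X-linked H3K4 demethylase Kdm5c at 139 and Rcor1 (CoREST) at 86.4, and the lowest was Kdm4d at 0.033.

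**Figure D2:**
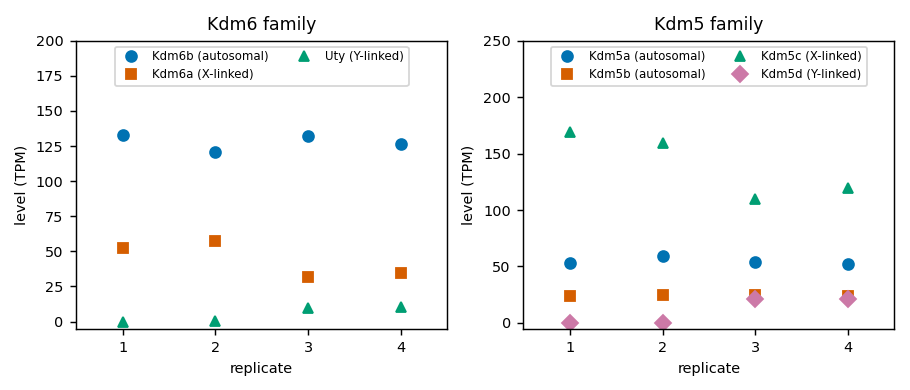
Level (TPM, linear axis) of the Kdm6 family (left) and the Kdm5 family (right) in replicates 1 to 4, with 1 point per gene and library. The autosomal genes stay level across the libraries, whereas the X-linked Kdm6a and Kdm5c are lower, and the Y-linked Uty and Kdm5d higher, in replicates 3 and 4.

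The relatives of Kdm6b and Kdm5a on the sex chromosomes differed between libraries by more than those members did. Kdm6a, the X-linked H3K27 demethylase, had 52.65, 57.58, 31.88 and 34.47 TPM in replicates 1 to 4, and Kdm5c had 168.97, 159.03, 109.45 and 119.32. Kdm5d, the Y-linked relative of Kdm5c, had 8, 7, 2168 and 5675 counts (0.07, 0.03, 21.42 and 20.89 TPM), and Uty, the Y-linked relative of Kdm6a, had 0, 6, 639 and 1774 counts. Y-linked transcripts were thus abundant in replicates 3 and 4 and near the limit of counting in replicates 1 and 2, although all 4 samples share 1 donor record. The ratio of Kdm6b to Kdm6a moved with this, at log2 values of 1.33, 1.06, 2.05 and 1.87. Summing the X-linked and Y-linked gene narrowed the gap without closing it: Kdm6a and Uty together held 52.7, 57.6, 41.7 and 44.6 TPM, and Kdm5c and Kdm5d together 169, 159, 131 and 140.

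The 6 PRC2 members had a median of 46.0 ± 3.13 TPM. The scaffold Suz12 had 80.24, 90.38, 86.26 and 78.93 TPM, and Eed, which reads methylated H3K27, had 52.33, 58.61, 49.78 and 52.66. Suz12 was the highest of the 6 with the deposited length alone: Mtf2 was with the median transcript length (119 TPM against 42.4) and Ezh1 with the longest (79.4 against 69.1). Ezh2 was the lowest of the 6 with each of the 3 lengths. Of the 2 catalytic subunits, Ezh1 had 59.62, 64.01, 62.47 and 60.71 TPM and Ezh2 13.38, 14.96, 13.82 and 12.33. Ezh2 was below Ezh1 in every library without overlap, with a log2 ratio of -2.17 ± 0.08 (4.51-fold), and made up 18.1% ± 0.868 of their sum. With the deposited length, the mean of Eed and Suz12 was 0.911 ± 0.0226 of the summed Ezh1 and Ezh2 level. Of the 10 markers of dividing cells, 5 reached 1 TPM in every library. The highest, Cdc20, averaged 8.53 TPM, Top2a 3.85 and Mki67 1.93. The part of dividing cells in the Ezh2 level was not tested.

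Jarid2 and Mtf2, accessory subunits of alternative PRC2 forms, averaged 38.7 ± 2.92 and 36.8 ± 2.77 TPM and could not be ordered, with a log2 ratio of 0.07 ± 0.07 whose sign held in 3 of 4 libraries. All 6 further PRC2 subunits measured were detected. Phf1, an accessory subunit of the Mtf2 type, was the highest at 479 TPM, and its relative Phf19 the lowest at 2.46. For Phf1, 27.7% of the sampled words are shared with other genes. The histone-binding subunits Rbbp7 and Rbbp4, which other complexes share, averaged 153 and 89.0 TPM.

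**Figure D3:**
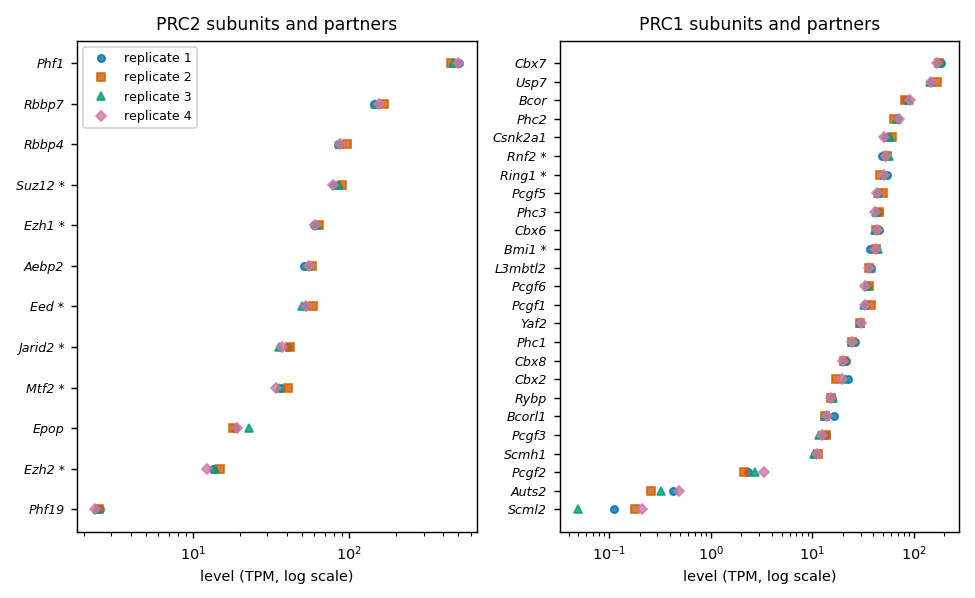
Levels (TPM, log axes) of PRC2 subunits (left) and PRC1 subunits with partners (right), with 1 point per library and an asterisk on the 9 members. Phf1 and Cbx7 lead the panels at 479 and 178 TPM on average, and Ezh2 lies next to last among the PRC2 subunits shown.

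The 3 PRC1 members had a median of 49.5 ± 2.14 TPM. The ubiquitin ligases Rnf2 and Ring1 averaged 53.5 ± 3.32 and 50.8 ± 3.14 TPM, with a log2 ratio of Ring1 to Rnf2 of -0.08 ± 0.16 and the sign in 3 of 4 libraries. Bmi1, the partner that activates the ligase, had 36.76, 42.70, 43.92 and 42.85 TPM, lowest in replicate 1. Its paralog Pcgf2 averaged 2.65 TPM, so Bmi1 was 15.4-fold higher (log2 ratio 3.94 ± 0.26). For Bmi1, 20.7% of the sampled words are shared with other genes. With the median transcript length the 3 members spread further, with Bmi1 at 119 TPM, Rnf2 at 88.6 and Ring1 at 35.9. Of 23 other PRC1 genes, 21 were detected, led by Cbx7, which binds methylated H3K27, at 178 TPM and the deubiquitinase Usp7 at 151, while Scml2 was lowest at 0.138. In the list of H2A deubiquitinase and other Polycomb group genes 7 of 9 were detected, with the DNA-binding factor Yy1 at 115 TPM, the deubiquitinase cofactor Asxl1 at 102 and its enzyme Bap1 at 89.7, and Asxl3 was listed at 0.

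Prmt1, the main enzyme of asymmetric arginine dimethylation, averaged 96.2 ± 1.80 TPM. Prmt5, which dimethylates arginine symmetrically together with Wdr77, had 75.59, 69.00, 72.87 and 81.23 TPM and lay 1.29-fold below Prmt1, in every library. Of 9 other genes of this class 7 were detected: Carm1, a coactivator enzyme, led at 50.2 TPM, followed by Prmt3, which methylates a ribosomal protein, at 37.6 and Wdr77 at 26.0, and Prmt8, known from brain, was listed at 0. For Wdr77, 39.5% of the sampled words are shared with other genes and 28.7% of the exon length overlaps another gene on the same strand, and for Carm1 23.5% of the words are shared. Among 22 other lysine methyltransferases 19 were detected, with Prdm2 (103 TPM), Nsd3 (87.6) and Setd6 (67.2) highest and Mecom listed at 0.

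**Figure D4:**
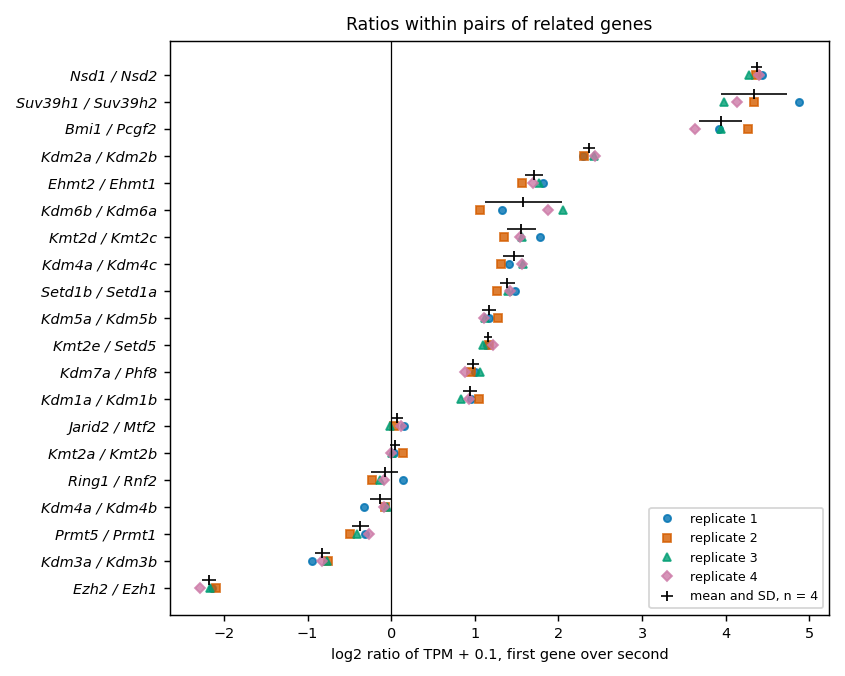
Log2 ratio of TPM plus 0.1 within 20 pairs of related genes, first over second, with 1 point per library and, above the points, a tick with a bar for the mean and SD (n = 4). Nsd1 to Nsd2, Suv39h1 to Suv39h2 and Bmi1 to Pcgf2 lie at 3.94 to 4.37, and Ezh2 to Ezh1 lies lowest at -2.17.

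Across the 20 pairs, the same gene was higher in 4 of 4 libraries in 18, the difference passed 2-fold in 12 and 4-fold in 5. The exact two-sided sign-flip permutation test over libraries gave each of the 18 the smallest p that 4 libraries allow, 2 of 16 sign patterns, and 0.139 after Benjamini-Hochberg adjustment over the 20 pairs. No pair could therefore pass 0.05, and the sizes are given with their SD instead. For Ring1 with Rnf2 the p was 0.5 and for Jarid2 with Mtf2 0.25. For 6 pairs the direction rests on the gene length used: with the median length of protein-coding transcripts the log2 ratio was -0.80 for Setd1b to Setd1a, -0.53 for Kdm7a to Phf8 and -0.84 for Jarid2 to Mtf2, and with the longest such transcript -0.12 for Kmt2a to Kmt2b, 0.080 for Kdm4a to Kdm4b and 0.23 for Ring1 to Rnf2. The size of others also moved with length while the direction stayed. With the median length the log2 ratio was -1.52 for Ezh2 to Ezh1, 0.85 for Kmt2d to Kmt2c, 6.53 for Nsd1 to Nsd2, 3.87 for Kdm2a to Kdm2b, 5.61 for Bmi1 to Pcgf2, 0.30 for Kdm6b to Kdm6a, 1.58 for Kdm1a to Kdm1b, 0.19 for Kmt2e to Setd5 and -1.40 for Prmt5 to Prmt1. With the longest transcript it was 3.27 for Nsd1 to Nsd2, 5.03 for Suv39h1 to Suv39h2 and -0.22 for Kdm3a to Kdm3b, and with a pseudocount of 1 TPM Suv39h1 to Suv39h2 stood at 3.61. These fold differences therefore depend on which transcripts set the length, and the order of the genes in each of these pairs did not.

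Members were tested for variation between libraries in one model over 12554 genes. In edgeR's quasi-likelihood fit (residual deviance, Benjamini-Hochberg adjustment) 0 of 43 members were called at an adjusted p of 0.05, where 142 genes, or 1.13%, were called over all. At an unadjusted p under 0.05 the count was 0 of 43 members, beside 5.23% of all tested genes. Both counts hold for the list as chosen, with earlier results of these data known. That list leaves out Kdm6a and Kdm5c, relatives of members that edgeR called, as given below. The lowest member p was 0.0788, for Kmt2d. With the size factors and trended dispersion of DESeq2 in place of edgeR's, the residual deviance called 0 members and 0.948% of all tested genes. Kmt2d had an unadjusted p of 0.000574 in that deviance test (adjusted 0.0572), the 1 member under 0.05 there.

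The ratio of the highest to the lowest library (TMM-scaled CPM, counts per library total) had a median of 1.12 over the members, 1.18 over all tested genes and 1.12 over 2750 tested genes at a like level. It was under 1.3 for 41 members, the exceptions being Suv39h2 at 1.93 and Kmt2d at 1.36. Against genes at a like level 23 of 43 members lay under the median, and against all tested genes 35 lay under the median. The SD of TPM as a share of its mean, without TMM scaling, was also compared by its median. That was 6.20% over the members, 5.36% over those 2750 genes and 7.84% over all tested genes. The difference between members and the 2750 genes was not tested. Those genes lie within the quartiles of the members' CPM, whereas the members span their whole range. Of 107 related genes 105 were measured, 92 were tested and 3 were called by edgeR: Kdm6a (adjusted p = 8.92e-10), Kdm5c (0.0298) and Prdm16, a methyltransferase of the PRDM family (0.0184), at 2.53, 2.52, 3.39 and 4.68 TPM. The adjusted p of Kdm5c ran from 0.0512 to 0.564 when any 1 replicate was left out, and that of Prdm16 was 0.0532, 0.0687 and 1.00 without replicates 1, 2 and 4.

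The small differences between libraries moved with the GC content of the members' transcripts. Of 10 members with 55% GC or more, 9 had their highest CPM in replicate 1 and 9 their lowest in replicate 2, among them Kmt2d. Of the 33 members under 55% GC, 5 were highest in replicate 1 and 15 in replicate 2. Across the 43 members, which share libraries, the Pearson correlation of GC content with the deviation of log2 CPM from the gene's mean was 0.59, -0.78, -0.23 and 0.18 in replicates 1 to 4. Over 10783 genes it was 0.20, -0.44, 0.037 and 0.17. Kmt2d, with a GC content of 58.4%, had the direction of this trend in replicates 1 and 2. Its ratio of the highest to the lowest library, 1.36, was larger than in members of like GC content. That ratio was 1.22 for Setd1b (59.0% GC), 1.20 for Kdm4b (58.7%), 1.18 for Kmt2b (59.1%) and 1.12 for Men1 (58.8%). With a GC offset in the edgeR fit 0 members were called, beside 1.39% of all tested genes. The lowest member p in that fit was 0.114, for Bmi1 in place of Kmt2d.

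**Figure D5:**
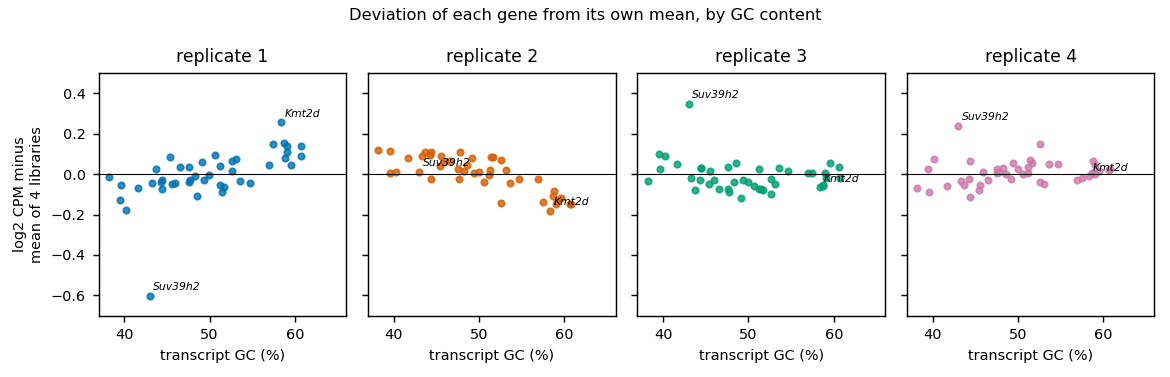
Deviation of log2 CPM from each gene's mean over 4 libraries (vertical) against transcript GC content in percent (horizontal), for the 43 members in replicates 1 to 4. Members of high GC content lie above 0 in replicate 1 and below 0 in replicate 2, and Suv39h2 lies lowest in replicate 1.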

How the data were processed

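The authors deposited raw counts of fragments for each gene. The counting program was featureCounts 1.4.6-p4, per the file headers, with GENCODE M13 exons on mm10, strand setting 2 (reverse-stranded) and read pairs aligned at both ends. Fragments with several alignments or over several genes were not counted, since no such option is set in the headers. The gene length came from the same deposited tables.

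TPM was computed from count and length, and 50376 of 50600 genes (99.6%) had a symbol in GENCODE M21. Detection meant 1 TPM in every library. Variation was tested with edgeR (version 4.0.16, R 4.3.3) after filterByExpr and TMM scaling. The model had an intercept only, and its deviance, at the dispersion of the trend, was compared with a chi-square distribution of 3 degrees of freedom. DESeq2 1.42.0 served as an alternative source of size factors and trended dispersion only, and its own test was not run. Pair ratios used TPM plus 0.1. Shared words of 50 bases were sampled every 10 bases of each gene's transcripts. The edgeR step was checked on artificial counts with known changes. Python 3.11.15 with scipy 1.17.1, pandas 2.3.3 and numpy 2.4.6 served for all else, with plots from matplotlib 3.10.9.

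Depth ran from 23000465 to 62090744 counts. No library was a copy of another: the lowest chi-square per degree of freedom between 2 libraries was 6.71. The members, lists and pairs were chosen with earlier results of these data known. Named genes were all members, the 3 highest and the lowest of each related list, all related genes called variable, all genes in pairs, and Kdm5c, Kdm5d, Kdm6a and Uty. A gene that this rule includes is not reported here by name, though it stayed in the counts. Of the related genes, Tasor and Ezhip did not match a symbol and have no value here. Alternatives changed the unit, length, thresholds, pseudocount, filter, normalization and source of the dispersion, or left out a library. The alternatives with the longest coding transcript and with a GC offset were chosen after seeing the data.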

Additional observations from a re-analysis of the deposited data

Results flagged for a closer look

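Of 72 values checked over the 4 libraries (members' levels and pair ratios among them), 4 had 1 library far from the other 3, and chance alone gives about 1 in 20, or 3.6. Kmt2e stood at 120.63 TPM in replicate 2 and at 110.24 to 111.98 in the others. Setd2 stood at 69.62 TPM in replicate 2 and at 61.67 to 62.41 in the others. Bmi1 stood at 36.76 TPM in replicate 1 and at 42.70 to 43.92 in the others. The log2 ratio of Kdm4a to Kdm4b was -0.32 in replicate 1 and -0.09 to -0.05 in the others.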

How the results depend on the processing

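The count of 0 members called variable held under every alternative run. Over all tested genes the share called was 0.398% (no filter) to 1.39% (GC offset), so 0 of 43 is near the background share. An unadjusted p under 0.05 was reached by 1 member (Kmt2d) with the DESeq2 dispersion and, at 0.0333, without replicate 4. The number of all genes called was 142, and it was 88 with no filter on low counts, 92 with a term for the 2 deeper libraries, and 60 to 85 when 1 replicate was left out. It was 119 with the DESeq2 dispersion and 174 with a GC offset. The members' median level moved from 64.9 to 72.7 TPM when TPM was taken over protein-coding genes outside the mitochondrial genome, and it was 114 on the CPM scale, which ignores length. Pair ratios kept their sign in 153 of 160 values, and 14 of 20 pairs in every alternative. Many of the 160 could not turn. For the 18 pairs with the same gene higher in 4 of 4 libraries, leaving out a replicate or raising the pseudocount cannot change the sign. Only the alternatives that changed or dropped the length could do so. Beside the turned ratios given above (-0.80, -0.53, -0.84, -0.12, 0.080 and 0.23), Kdm4a to Kdm4b turned to 0.11 on the CPM scale. Such turns follow from the lengths, since counts are the same. Ezh2 to Ezh1 stayed negative, from -1.52 with the median transcript length to -2.33 on the CPM scale. Leaving out 1 of 4 replicates cannot move a mean by as much as 1 SD, so it could not test the 43 mean levels. The median transcript length moved 41 of them by more than 1 SD and the longest 34. Kdm6a stayed called in all alternatives, and the adjusted p of Kdm5c rose to 0.0756 with the depth term. No paired analysis was possible because all 4 libraries belong to 1 group. Among the members depth limits only Suv39h2, with 25 to 108 counts; intervals for the other members are set by the spread between libraries.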
